A study of Homo sapiens with 15 samples.

Results

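The nuclear genes for the subunits of oxidative phosphorylation were followed through short and long exposure of human bronchial epithelial cells to nanoplastics. Members were the protein-coding genes whose symbols name a structural subunit of complexes I to V and that lie on nuclear chromosomes, which gave 90 of the 28395 genes in the count table. Complex I had 38 members, complex II 4, complex III 10, complex IV 19 and complex V 19. Assembly factors and the subunits encoded in mitochondrial DNA were not members and are given separately. Of the 90 members, 84 passed the filter on low counts, among 16740 genes of the whole table that passed.

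The data were 15 total RNA libraries of BEAS-2B, an immortalised human bronchial epithelial cell line. Exposed cultures received polyethylene terephthalate nanoplastics (PET-NPLs) at 50 µg/mL, and nonexposed passage-matched controls were kept in parallel. The 24 h and 15-week time points had 2 control and 2 exposed libraries each, and the 30-week time point had 3 control and 4 exposed libraries. The cultures at 15 and 30 weeks had been passaged throughout, and every library came from the same cell line. The labels do not say whether replicates were separate cultures, so p-values measure only the spread between these samples, which may be technical.

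Libraries held between 23143202 and 31459990 counts. The 24 h and 15-week libraries carried batch label 1 and the 30-week libraries batch label 2, so that the step from 15 to 30 weeks and the batch cannot be told apart. Exposed and control cells of a time point always shared a batch. Several epithelial markers were near 0 in every group: EPCAM and CDH1 stayed below 1 CPM (counts per 1000000 counts of the library, after scaling) in every group, and the basal markers KRT5 and TP63 reached at most 0.457 and 0.105 CPM. KRT8, KRT18 and another basal marker, ITGA6, were present throughout. ITGA6 was at 342 to 400 CPM in the 24 h controls, 111 to 115 CPM at 15 weeks and 121 to 159 CPM at 30 weeks. In exposed cells it was at 364 to 382, 89.6 to 104 and 66.7 to 122 CPM. The 30-week controls stood apart from all other groups in the skeletal muscle markers MYOD1, MYOG, DES, TNNT1 and CHRNA1. MYOD1, a regulator of muscle identity, ranged from 65.8 to 106 CPM in them against 0.313 to 0.761 CPM in the 30-week exposed cells, and CHRNA1 ranged from 46.7 to 48.5 CPM against 0 to 0.456 CPM. The summed level of the 10 muscle markers was 361 to 434 CPM in the 30-week controls and 76.2 to 93.1 CPM in the 30-week exposed cells. It was 152 to 179 CPM in the 24 h controls, where TTN alone ranged from 116 to 147 CPM. At 30 weeks TTN was at 36.7 to 54 CPM in controls and 41.3 to 51.9 CPM in exposed cells. MYH3 also overlapped, at 2.65 to 3.44 CPM against 3.02 to 4.06 CPM. CKM and ACTA1 stayed below 1 CPM and MYF5 was at 0 in every group. The summed level of 6 general epithelial markers was 1990 to 2300 CPM in the 24 h controls and 854 to 898 CPM in the 15-week controls. At 30 weeks it was 314 to 411 CPM in controls and 880 to 1100 CPM in exposed cells. KRT7 was at 1220 to 1410 CPM and the basal marker KRT17 at 138 to 166 CPM in the 24 h controls. In the 30-week libraries they reached at most 3.29 and 1.82 CPM. These differences accompany every 30-week comparison below, and their part in the members' values was not tested.

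Oxidative phosphorylation passes electrons from NADH and succinate through complexes I and II to ubiquinone, then through complex III and cytochrome c to complex IV, where oxygen is reduced. Complexes I, III and IV pump protons across the inner mitochondrial membrane, and complex V, the ATP synthase, uses the gradient to make ATP. Nuclear genes encode most subunits and mitochondrial DNA encodes a few core ones, and complex II is encoded by nuclear genes alone. Many accessory subunits are small proteins with short transcripts. The transcription factors NRF1, GABPA and YY1 are known to bind many of these promoters.

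Promoters are shown for 6 members on which the results below turn: SDHA and ATP5F1A, which differed with time in culture, and ATP5ME, COX5B, UQCRQ and NDUFA3, which were lower in exposed cells at 30 weeks. Each run is the 120 bases before the annotated start, read 5′ to 3′ on the gene's strand from RefSeq on GRCh38.p14. Capitals mark matches on either strand to GCGCANGCG for NRF1 or CCGGAAG for GABPA and other ETS factors. YY1 was searched as AAGATGGCG and had no match in these 6 windows.
SDHA, chr5:218200-218319, plus strand: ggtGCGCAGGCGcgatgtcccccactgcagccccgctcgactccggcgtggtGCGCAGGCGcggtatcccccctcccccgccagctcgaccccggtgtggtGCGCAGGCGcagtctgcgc
ATP5ME, chr4:674277-674396, minus strand: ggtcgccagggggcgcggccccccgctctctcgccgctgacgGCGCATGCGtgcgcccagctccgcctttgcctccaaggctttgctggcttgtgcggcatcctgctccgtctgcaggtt
COX5B, chr2:97645942-97646061, plus strand: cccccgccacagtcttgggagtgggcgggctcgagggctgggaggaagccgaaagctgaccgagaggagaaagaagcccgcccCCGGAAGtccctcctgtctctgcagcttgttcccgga
UQCRQ, chr5:132866522-132866641, plus strand: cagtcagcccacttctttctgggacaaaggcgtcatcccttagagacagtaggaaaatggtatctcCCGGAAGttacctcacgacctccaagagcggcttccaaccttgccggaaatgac
ATP5F1A, the other of its 2 starts not shown, chr18:46098297-46098416, minus strand: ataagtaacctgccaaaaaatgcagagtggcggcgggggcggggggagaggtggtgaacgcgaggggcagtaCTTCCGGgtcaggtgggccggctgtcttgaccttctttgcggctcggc
NDUFA3, chr19:54102735-54102854, plus strand: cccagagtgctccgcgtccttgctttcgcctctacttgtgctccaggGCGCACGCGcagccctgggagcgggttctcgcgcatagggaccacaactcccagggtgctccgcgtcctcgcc

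The window of SDHA held the NRF1 letters at 3 places, and the other 5 windows each held 1 match. The promoter table had 86 entries for 72 of the 90 members, each reaching from 250 bases before to 50 bases after a start. In these windows 27.9% of the members' entries held the NRF1 letters, against 7.52% of all 35116 entries. The GABPA letters were in 25.6% of the members' entries and in 10.3% of all entries, and the YY1 letters in 11.6% and 1.75%. The members that were lower at 30 weeks and the other members tested were alike in the GABPA letters, with 26.7% of 30 entries and 26.9% of 52. For the NRF1 letters these shares were 36.7% and 23.1%, which is a description of few entries with no test, and a match of letters is not a bound site.

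Per length, measured as CPM per kilobase of canonical transcript, the members' levels at 24 h spread widely. ATP5F1B, the catalytic beta subunit of the ATP synthase, had the highest level in control cells with 423 CPM per kilobase, followed by COX8A with 324 and COX7C with 269, both small subunits of complex IV. Among members above 1 CPM, NDUFV3 had the lowest level with 5.73 CPM per kilobase, below NDUFA5 with 9.02 and ATP5F1D with 13.3. COX6B2, COX7A1, NDUFA4L2 and ATP5MGL passed the filter with under 1 CPM in every library.

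Tissue isoforms were nearly absent beside their common partners. COX4I2, the complex IV isoform known from lung and hypoxic cells, had at most 1 count in any library, while its partner COX4I1 ranged from 103.9 to 431.4 CPM. COX6A2, a heart and muscle isoform, and the testis isoform COX8C had 0 counts in all 15 libraries. A count of 0 allows up to 3 counts in a library, counting error only. COX7B2, another testis isoform, had at most 1 count. The heart and muscle isoform COX7A1 stayed between 0 and 0.473 CPM, also in the 30-week controls with their muscle markers, while its partner COX7A2 ranged from 99.37 to 495.8 CPM. COX6B2 reached at most 0.8948 CPM, and NDUFA4L2, a paralogue induced by low oxygen, between 0.2166 and 0.648 CPM. The other members that failed the filter were 2 readthrough genes, NDUFC2-KCTD14 with 0 to 4 counts and ATP5MF-PTCD1 with 0.

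At 24 h the question was whether a first exposure to PET-NPLs changed the subunit genes. The summed level of the 90 members was 8167 and 9265 CPM in the 2 control libraries and 8944 and 9313 CPM in the 2 exposed libraries, so the groups overlapped. No member passed the test, and none of the 16740 genes did (0% called). By edgeR's quasi-likelihood test 0 of 84 members had an unadjusted p under 0.05, and DESeq2 and limma-voom also gave 0. The members' median log2 fold change was 0.05, against 0.00 for all genes tested. SDHA was at 299.6 and 338.1 CPM in control cells and at 337.8 and 321.4 CPM in exposed cells. ATP5F1B was at 690.2 and 796.5 CPM and at 780.9 and 791.6 CPM.

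At 15 weeks the same comparison again gave no call among members or among all genes (0% called). The summed level was 9443 and 8895 CPM in controls and 9126 and 8812 CPM in exposed cells. By edgeR 0 members had an unadjusted p under 0.05, and the same held in DESeq2 and limma-voom. The members' median log2 fold change was -0.04. NDUFA3, an accessory subunit of complex I, was at 11.4 and 11.27 CPM in controls and at 7.818 and 9.995 CPM in exposed cells. COX4I1 was at 167.5 and 170.9 CPM and at 170.7 and 164.3 CPM. The fit shares its estimate of the spread with the more variable 30-week libraries. Fitted on the 4 libraries of the time point alone, 1.96% of all genes were called at 15 weeks and 0 members, of which 13 had an unadjusted p under 0.05. On the 8 libraries of batch 1 alone 8 had one at 15 weeks and 5 at 24 h, again with 0 members called.

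**Figure D1:**
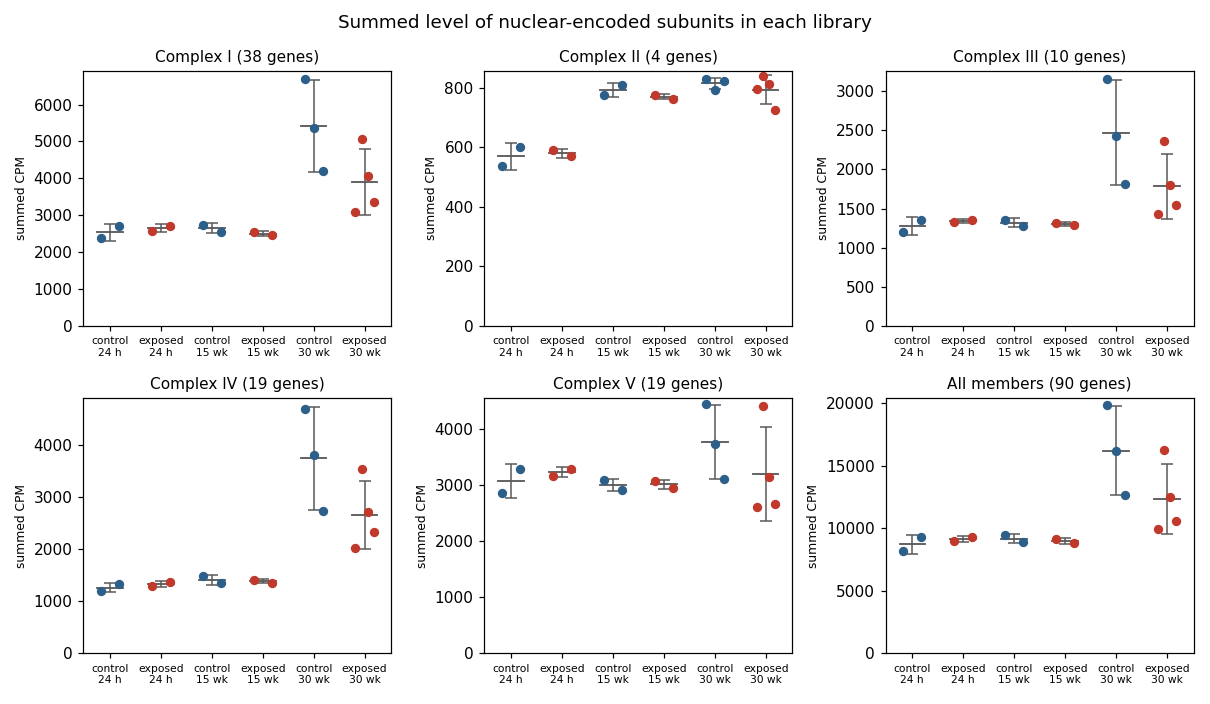
Each panel plots the summed level, in CPM, of a complex's members or of all members (vertical axis) in each library, by group (horizontal axis). Points are libraries, with nonexposed cells in blue and exposed cells in red, and bars show the group mean and SD. Complexes I, III and IV were highest in the 30-week libraries, where control and exposed cells overlapped, whereas complex II reached its 30-week level by 15 weeks.

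At 30 weeks the subunit genes were lower on balance in exposed cells than in passage-matched controls. Of the 84 members tested, 25 were downregulated and 1 was upregulated. Among all genes tested 11.7% were called lower and 12% higher, against 29.8% and 1.19% of members. The members' median log2 fold change was -0.46, against 0.01 for all genes. Their summed level was 19840, 16150 and 12680 CPM in the control libraries 1 to 3 and 9951, 16240, 12530 and 10620 CPM in the exposed libraries 1 to 4. Exposed library 2 lay above controls 2 and 3, and exposed library 3 just below control 3, so the groups overlapped. In 7 members, NDUFA13, NDUFA3, NDUFB7, NDUFS5, NDUFV1, UQCR10 and ATP5ME, each exposed library lay below each control. That was 8.33% of members against 13% of all genes, so complete separation was no more frequent among members than in the table as a whole.

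The number of calls depended on single libraries and on the model. With all libraries, limma-voom with surrogate variables, which are unlabelled sources of variation estimated from the data, called 54 members lower and 2 higher, against 16.1% and 14.4% of all genes. Without exposed library 2, 60 members were lower and 2 higher, against 18% and 16.2% of all genes. Without control library 1, 4 were lower and 1 higher, against 7.04% and 7.9% of all genes. Fitted on the 7 libraries of 30 weeks alone, 6 of 83 members were lower and 0 higher, against 7.86% and 7.41% of all genes. The 6 were ATP5ME, COX5B, NDUFA13, NDUFA3, NDUFS5 and UQCR10. The members' median stayed below 0 in each of these settings, and was -0.63 without exposed library 2 and -0.26 without control library 1.

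**Figure D2:**
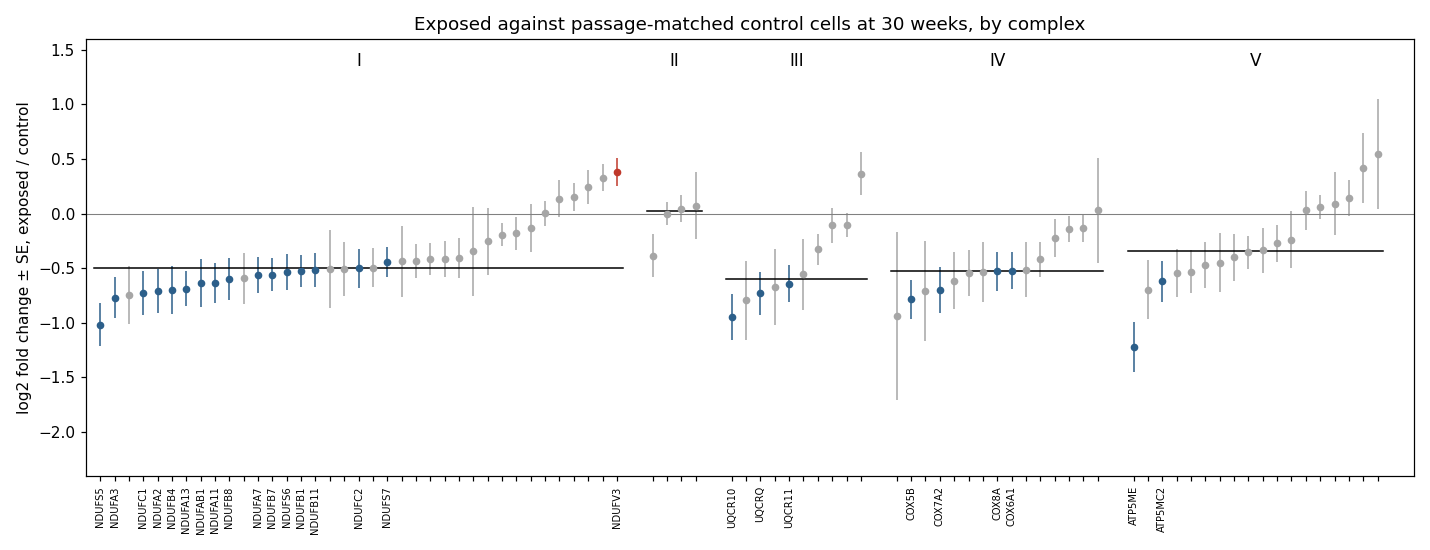
The vertical axis is the log2 fold change of exposed against control cells at 30 weeks with its SE, for the 84 members tested, ordered by complex (horizontal axis), with the symbols of called members. Blue points were called lower, the red point higher and grey points were not called, and horizontal lines are the medians of each complex, from -0.60 in complex III to 0.02 in complex II.

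Complex I had a median log2 fold change of -0.50, with 16 of 37 members lower, 1 higher and 20 not called. NDUFS5, a small accessory subunit of the intermembrane space side, was at 511.6, 399.1 and 291.9 CPM in controls and at 152.4, 266.8, 219.2 and 154.1 CPM in exposed cells. All exposed libraries lay below all controls, and NDUFS5 was 2.02-fold lower (log2 -1.02, SE 0.20, adjusted p = 0.00144). NDUFA13, an accessory subunit also known as GRIM-19, was at 463.2, 353.7 and 279.4 CPM against 186.6, 265.6, 247.9 and 206.6 CPM. It too showed no overlap (log2 -0.69, SE 0.16, adjusted p = 0.00492). NDUFA3 was at 57.24, 44.11 and 36 CPM against 19.77, 34.03, 31.43 and 22.08 CPM (log2 -0.77, SE 0.19, adjusted p = 0.0078). NDUFC1, NDUFA2 and NDUFB4 were lower by similar sizes (log2 -0.73, -0.71 and -0.70), but their exposed libraries overlapped the controls.

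The core subunits of complex I carry the flavin, the iron-sulphur clusters and the quinone site. Among them NDUFS7, which holds the last cluster before the quinone, was called. It was at 99.55, 78.77 and 68 CPM in controls and at 51.21, 65.88, 68.55 and 55.91 CPM in exposed cells (log2 -0.44, SE 0.14, adjusted p = 0.0298), and exposed library 3 lay just above the lowest control. NDUFS8, its neighbour in the chain, had log2 -0.44 and missed the threshold (adjusted p = 0.0542). NDUFV1, which binds NADH and flavin, was at 190.5, 168.3 and 169.9 CPM against 146, 152.2, 163.5 and 154.9 CPM, a small difference that did not pass (log2 -0.19, adjusted p = 0.221). NDUFS1, NDUFS3 and NDUFV2 had log2 values of 0.15, -0.18 and -0.14 and did not pass. The single upregulated member was NDUFV3, an accessory subunit beside the flavin site, at 60.12, 51.15 and 46.96 CPM in controls and 65.8, 76.01, 66.23 and 65.94 CPM in exposed cells. Every exposed library was above every control (log2 0.38, SE 0.13, adjusted p = 0.0438).

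Complex II, succinate dehydrogenase, had no call among its 4 members and a median of 0.02. SDHA, the flavoprotein, was at 508.4, 497.8 and 604.7 CPM in controls and at 606.2, 481.1, 588.6 and 541.6 CPM in exposed cells, with full overlap (log2 0.05, SE 0.12). SDHC, a membrane anchor, also overlapped, from 42.06 to 47.49 CPM against 40.42 to 48.18 CPM. SDHB, the iron-sulphur subunit, had a log2 value of -0.39 with an SE of 0.20 (adjusted p = 0.169), and SDHD, the other anchor, 0.07 with an SE of 0.30. SDHD was at 110.4 CPM in exposed library 2 and at 36.32 to 45.33 CPM in the other 3.

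Complex III had 3 of 10 members lower. UQCR10, a small accessory subunit, was at 390.6, 285.5 and 209.7 CPM in controls and at 110.8, 208, 164.7 and 129.4 CPM in exposed cells. The highest exposed library lay just under the lowest control (1.93-fold lower, log2 -0.95, SE 0.21, adjusted p = 0.0037). UQCRQ was at 601.1, 499.7 and 331.5 CPM against 209.1, 382.2, 302.4 and 256.2 CPM, with exposed library 2 above control 3 (log2 -0.73, adjusted p = 0.0125), and UQCR11 had log2 -0.64 (adjusted p = 0.011). The catalytic and core subunits were not called: CYC1, which holds the haem of cytochrome c1, had log2 -0.33 (adjusted p = 0.101), the Rieske protein UQCRFS1 -0.11, UQCRC1 -0.11 and UQCRC2 0.37. UQCRH and its near-identical retrocopy UQCRHL had -0.79 and -0.67 with SEs of 0.36 and 0.35, and reads may be divided between them, so their values are uncertain.

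Complex IV had 4 of 15 members lower. COX5B, a subunit that binds zinc on the matrix side, was at 506.4, 411.9 and 255.1 CPM in controls and at 185.4, 275.1, 231.8 and 214.3 CPM in exposed cells. Only exposed library 2 reached into the control range (1.73-fold lower, log2 -0.79, SE 0.18, adjusted p = 0.00498). COX7A2, COX8A and COX6A1 were also lower (log2 -0.70, -0.53 and -0.52), each with exposed library 2 above the lowest control. The largest nuclear subunit, COX4I1, was at 431.4, 336.9 and 334.5 CPM against 312.8, 361.9, 361 and 299.8 CPM and overlapped (log2 -0.14, SE 0.12). COX5A had -0.14, COX6B1 -0.42, COX7A2L -0.23, COX7B -0.51 and NDUFA4, which is now placed in complex IV, -0.62, and none of these passed.

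Complex V had 2 of 18 members lower, and this 11.1% was near the 11.7% of all genes. ATP5ME, a small membrane subunit of the ATP synthase dimer, had the largest change of all members tested. It was at 218.3, 161.2 and 111.5 CPM in controls and at 50.23, 102.3, 76.97 and 51.37 CPM in exposed cells, with no overlap (2.33-fold lower, log2 -1.22, SE 0.23, adjusted p = 0.00108). ATP5MC2 is 1 of 3 genes for the same ring subunit c, and was at 358.9, 258.7 and 214.2 CPM against 134.6, 236.7, 199.2 and 151.6 CPM (log2 -0.62, adjusted p = 0.0249). Its sister genes had log2 -0.40 for ATP5MC1 and -0.27 for ATP5MC3 and did not pass. The catalytic head was not called: ATP5F1B was at 891.9, 843.6 and 918.1 CPM against 937.3, 969.3, 915.8 and 868.6 CPM (log2 0.06, SE 0.11). ATP5F1A, ATP5F1C, ATP5F1D and ATP5F1E had log2 values of 0.14, 0.09, -0.36 and -0.54.

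The members' canonical transcripts were short, and the 30-week values followed canonical transcript length. The canonical transcript in GENCODE 44 was under 1000 bases for 59.5% of the members tested and for 11.6% of the genes tested that had a length, with median lengths of 781 and 2998 bases. Of the 25 members called lower, 22 were among the 50 with a transcript under 1000 bases, whose median log2 fold change was -0.53. The 17 members from 1000 up to 2000 bases had 2 lower calls and a median of -0.19, and the 17 of 2000 bases or more had 1 lower and 1 higher call and a median of -0.24. Among other protein-coding genes those under 1000 bases were likewise the lowest. They had a median of -0.38, with 29.5% of 774 lower and 3.88% higher. Those from 1000 up to 2000 bases had a median of -0.09 and longer ones 0.08, unlike the -0.24 of the longer members. Over the 84 members the Spearman correlation of length with the log2 fold change was 0.501, and over 13860 other protein-coding genes it was 0.227. Genes share the same libraries and are not independent replicates. Complex II, with no call, had 0 members with a canonical transcript under 1000 bases. By the union of all exons of a gene, 6 of the 25 lower members were under 1000 bases and 11 were of 2000 bases or more.

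Fewer members were called when length was taken into account. With an added scaling, chosen after seeing the data, that removes each library's trend with transcript length, 13 members were lower and 2 higher, against 11.6% and 10.9% of all genes, and the members' median was -0.23. ATP5ME (log2 -0.90), UQCR10 (-0.75), NDUFS5 (-0.73), UQCRQ (-0.66) and NDUFA3 (-0.59) were among the 13. NDUFA8 (0.45) was among the members higher on this scale, and NDUFV3 was not called. Without exposed library 2 the same scaling gave 44 lower and 2 higher members, against 17.5% and 15.1% of all genes.

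Library by library, short members and other short genes moved together. Relative to the mean of the 24 h controls, the members under 1000 bases had a median log2 level of 1.76, 1.49 and 1.00 in the 30-week controls 1 to 3 and of 0.41, 1.26, 0.97 and 0.57 in the exposed libraries 1 to 4. Other protein-coding genes of that length had 1.19, 0.88 and 0.64 in the controls and 0.30, 0.86, 0.63 and 0.46 in the exposed libraries, in the same order over the 7 libraries. The 6 most abundant small noncoding RNAs took 22.3% to 31.03% of counts in the 30-week controls, 17.04% to 21.46% in the 30-week exposed libraries and 9.748% to 12.92% in the libraries of 24 h and 15 weeks. The part of these library differences in the members' values was not tested.

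**Figure D3:**
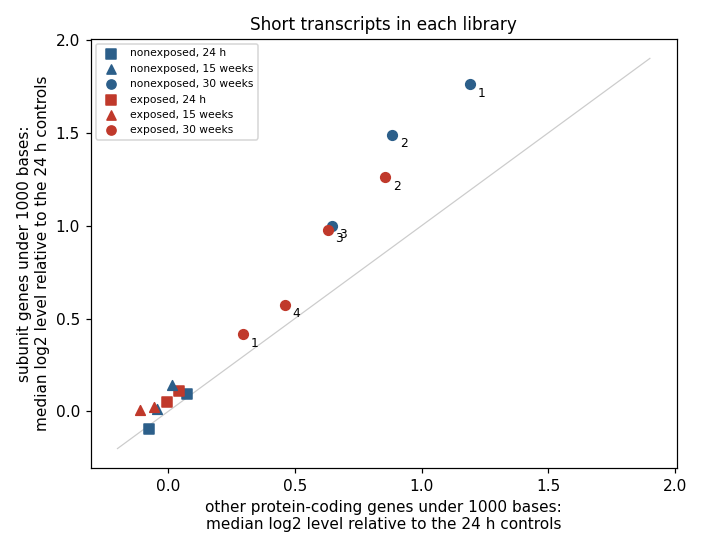
Each point is a library, placed by the median log2 level, relative to the 24 h controls, of other protein-coding genes under 1000 bases (horizontal axis) and of members under 1000 bases (vertical axis). Colour marks exposure, shape marks time, numbers are the 30-week replicates, and the grey line marks equal values. The 30-week libraries lay above the line, from 0.41 in exposed library 1 to 1.76 in control library 1.

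Whether the exposure difference itself grew from 15 to 30 weeks was tested as the difference of the 2 exposure changes. No member passed, while 4.74% of all genes did. By edgeR 7 members had an unadjusted p under 0.05. DESeq2 and limma-voom also called 0, whereas limma-voom with surrogate variables called 31, of which 30 were lower, against 13.4% of all genes. ATP5ME had a difference of -0.99 with an SE of 0.38, UQCR10 of -0.96 with an SE of 0.35 and NDUFS5 of -0.94 with an SE of 0.33, the last with the smallest adjusted p among members (0.145). Without exposed library 2 at 30 weeks 11 members were lower and 0 higher, against 4.41% and 4.68% of all genes. Whether the difference grew thus depended on the model and on this library.

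Time in culture could be compared within batch 1 from 24 h to 15 weeks. In control cells 3 members were higher, against 12.7% of all genes, and 0 lower, against 12.2%. In exposed cells 4 were higher, against 13.5% of all genes, and 3 lower, against 12.5%. SDHA was at 299.6 and 338.1 CPM at 24 h and at 495.1 and 542.2 CPM at 15 weeks in controls, without overlap (1.63-fold higher, log2 0.70, SE 0.16, adjusted p = 0.00376). In exposed cells it was at 337.8 and 321.4 CPM and then at 474.5 and 481.4 CPM (1.45-fold higher, log2 0.54, adjusted p = 0.0194). COX4I1 went from 103.9 and 116.3 CPM to 167.5 and 170.9 CPM in controls (log2 0.62, adjusted p = 0.00888) and from 116.9 and 113.6 CPM to 170.7 and 164.3 CPM in exposed cells (log2 0.54, adjusted p = 0.0192). NDUFS6, an accessory subunit of complex I, was higher in both as well (log2 0.76 in controls and 0.62 in exposed cells).

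NDUFA8 passed in exposed cells, from 41.3 and 31.71 CPM to 58.57 and 61.01 CPM (log2 0.71, adjusted p = 0.0169), and had log2 0.55 in controls. The members lower in exposed cells were NDUFA3 (log2 -0.92, adjusted p = 0.016), ATP5F1A (-0.68, adjusted p = 0.0318) and NDUFA10 (-0.45, adjusted p = 0.0379), and in controls these had -0.43, -0.50 and -0.30. ATP5F1A, the alpha subunit of the ATP synthase head, was at 766.6 and 858 CPM in exposed cells at 24 h and at 521.9 and 491.7 CPM at 15 weeks, and its control values of 693.9 and 808.2 CPM and then 528.5 and 533 CPM did not overlap either. The difference between control and exposed cells in these steps was not tested apart from the 24 h and 15-week exposure comparisons, in which no member passed. Fitted on the 4 libraries of each step alone, 34 members were called in controls (22 higher and 12 lower) and 34 in exposed cells (17 and 17), against 43.7% and 44.9% of all genes.

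Between 15 and 30 weeks most members were higher at 30 weeks, in cells with and without PET-NPLs, in a step that cannot be told apart from the batch. In control cells 57 members were higher, against 25.6% of all genes, and 4 lower, against 24.6%, with a median log2 fold change of 0.96. In exposed cells 49 were higher, against 23.3%, and 5 lower, against 22.7%, with a median of 0.62. NDUFB1, a single-pass membrane subunit of complex I, was at 32.28 and 26.14 CPM in 15-week controls and at 137.4, 123.1 and 105 CPM in 30-week controls (4.17-fold higher, log2 2.06, SE 0.20, adjusted p = 1.04e-06). In exposed cells it went from 25.62 and 27.2 CPM to 69.1, 108.7, 84.13 and 76.08 CPM (3.2-fold higher, log2 1.68, SE 0.19, adjusted p = 9.1e-06). NDUFC2 was 4.33-fold higher in controls and 2.57-fold higher in exposed cells. Its counts may be affected by the readthrough gene that overlaps it.

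The other members of the 10 largest increases in controls were NDUFA3, NDUFB4, COX5B, ATP5ME, COX7A2, UQCR10, NDUFS5 and UQCRQ, with log2 values from 1.66 to 2.01. In exposed cells they were NDUFA3, NDUFB7, NDUFB11, COX5B, COX7A2, NDUFB4, ATP5F1E and COX8A, with log2 values from 1.13 to 1.59. By complex, controls had 27 of 37 members higher in complex I, 1 of 4 in II, 6 of 10 in III, 12 of 15 in IV and 11 of 18 in V. In exposed cells these were 24, 1, 6, 10 and 8. The member of complex II was SDHC, at 31.3 and 26.75 CPM in 15-week controls and 42.06 to 47.49 CPM at 30 weeks (log2 0.63, adjusted p = 0.000708).

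Few members were lower at 30 than at 15 weeks. ATP5F1A was at 528.5 and 533 CPM in 15-week controls and at 274.2, 298.6 and 269.1 CPM in 30-week controls (1.89-fold lower, log2 -0.92, SE 0.20, adjusted p = 0.00117). In exposed cells it was at 521.9 and 491.7 CPM and then at 272.4, 444.5, 255.1 and 266.8 CPM (log2 -0.71, adjusted p = 0.00548). UQCRC2, a core subunit of complex III, had log2 -1.03 in controls and -0.60 in exposed cells, NDUFS1, the largest core subunit of complex I, -0.69 and -0.53, and the accessory subunit NDUFA9 -0.67 and -0.49. ATP5PB, the peripheral stalk subunit b, was called in exposed cells (log2 -0.99, adjusted p = 0.0104) and had -0.75 in controls (adjusted p = 0.0526).

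Length also ordered the step from 15 to 30 weeks. In control cells the members under 1000 bases had a median log2 fold change of 1.34, those from 1000 up to 2000 bases 0.67 and longer ones 0.41, beside 0.96, 0.27 and -0.13 for other protein-coding genes. With the length-dependent scaling 51 members were higher and 5 lower in controls, against 27% and 23.2% of all genes, with a median of 0.63. NDUFS1 and NDUFA9 were not called lower on this scale, while UQCRC2 and ATP5F1A were, with ATP5F1C, ATP5PO and NDUFV2. In exposed cells 37 were higher and 8 lower, against 25.3% and 21.4%, with a median of 0.39.

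The 13 subunits encoded in mitochondrial DNA were not lower on balance in exposed cells at 30 weeks. None was called between exposed and control cells (3 had an unadjusted p under 0.05), and their median log2 fold change was 0.43, of the opposite sign to the -0.46 of the nuclear members. MT-ND1, a core subunit of complex I, averaged 49.7 CPM in exposed and 31.1 CPM in control cells (log2 0.68, SE 0.27, adjusted p = 0.078). MT-CO3, of complex IV, averaged 1170 and 1290 CPM (log2 -0.14). From 15 to 30 weeks all 13 were higher, in controls with a median of 1.97 and in exposed cells with a median of 2.08.

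Assembly factors build the complexes without being part of them, and their counts stand beside the 11.7% of all genes called lower at 30 weeks. In complex I 2 of 16 (12.5%) were lower, NDUFAF8 (log2 -0.73) and NDUFAF3 (-0.36), and in complex II 1 of 4, SDHAF4 (-0.97). In complex III 1 of 9 (11.1%) was lower, UQCC2 (-0.63), and in complex IV 6 of 26 (23.1%), namely SCO2 (-0.99) and COX17 (-0.81), both needed to load copper, COA4 (-0.74), COA3 (-0.66), CMC1 (-0.57) and COX18 (-0.49). The ATP synthase list had 2 of 7 lower, FMC1 (-1.03) and the inhibitor ATP5IF1 (-0.61), the latter with 110 CPM on average in exposed and 168 CPM in control cells and no overlap. None of the 12 genes for mobile carriers and ubiquinone synthesis was called (2 had an unadjusted p under 0.05).

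In the tricarboxylic acid cycle, which feeds the chain, 1 of 13 genes was called at 30 weeks (7.69% higher, against 12% of all genes), with a median of 0.24 and 4 genes at an unadjusted p under 0.05. It was the citrate synthase gene CS, which averaged 217 CPM in exposed and 167 CPM in control cells (log2 0.38, adjusted p = 0.0369). Of 13 regulators of mitochondrial gene expression 1 was called (7.69%), the coactivator gene PPARGC1B, with 8.31 and 4.94 CPM on average (log2 0.75, adjusted p = 0.0378). The genes for the factors whose motifs were searched were not called: NRF1 had log2 -0.02, YY1 0.02 and GABPA 0.44 (adjusted p = 0.0642). TFAM, which packages mitochondrial DNA, had -0.04.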

How the data were processed

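RNA had been extracted from BEAS-2B cells and sequenced as ribosomal RNA-depleted, stranded libraries with reads of 150 bases. Per the paper's methods and the submitters' processing notes, which name bcl2fastq, featureCounts and hg38, reads were trimmed, mapped and assigned to genes. The values are whole-number read counts per gene, deposited by the authors without scaling. The strand setting, the gene annotation and the treatment of reads with several matches are not given in the sources used here, so members with pseudogenes or overlapping genes are uncertain. The table had 28395 genes in 15 samples, and 27745 had a symbol.

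Values were computed in R 4.3.3. Genes were filtered with filterByExpr on the 6 groups, scaled by TMM and tested with edgeR 4.0.16 by its quasi-likelihood test over all 15 samples, with Benjamini-Hochberg adjustment over 16740 genes and a threshold of 0.05 in 8 comparisons. CPM are TMM-scaled, and each SE was derived from the log2 fold change and its F statistic. Of the members, 88 were found by their RefSeq symbol and 2 by their GENCODE symbol. Before TMM scaling, a CPM of 1 was 23 to 31 counts. Alternatives used DESeq2 1.42.0, limma 3.58.1 with sva 3.50.0 (2 surrogate variables), other filters and scalings, a replicate block, single groups of samples and libraries left out. Length-dependent scaling used a lowess span of 0.3 on canonical lengths. The procedure was tested on simulated data. The members and lists were chosen with earlier results of these data known. Named were all called members of a comparison, or the 10 largest in each direction where over 20 were called, with core subunits, isoforms, members failing the filter and called genes of other lists. The values of 1 core subunit are not reported here.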

Additional observations from a re-analysis of the deposited data

Results flagged for a closer look

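Among the 30-week exposed libraries, 8 of the 51 members examined had a library far from the other 3 by Dixon's test for 4 values at the 95% level. Chance gives this in about 1 of 20 independent groups. The members share the same 4 libraries and are not independent, so their number cannot be set against that rate. In all 8 it was exposed library 2, and it was the highest. The ratio of the gap to the range was 0.952 for NDUFA9 (101.9 CPM against 57.8 to 59.93), 0.877 for NDUFV2 (81.96 against 39.04 to 44.32), 0.958 for NDUFV3 (76.01 against 65.8 to 66.23) and 0.878 for SDHD (110.4 against 36.32 to 45.33). For UQCRC2 it was 0.958 (133.2 CPM against 68.2 to 70.91), for ATP5F1A 0.909 (444.5 against 255.1 to 272.4), for ATP5F1C 0.851 (241 against 78.08 to 102.4) and for ATP5PB 0.891 (267.9 against 100.5 to 118.7). Exposed library 2 was the highest of the 4 in 42 of the 51 members. It held 30623950 counts, within the range of the other libraries. The library also stood apart over all genes, by a chi-square per gene that is larger where 2 libraries differ more. This was 71.1 to 109 in its pairs with the other 3 exposed libraries and 13.4 to 29.3 in pairs among those. The deviation was thus not particular to the members.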

How the results depend on the processing

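At 24 h and 15 weeks 0 members were called in every setting tried. In what follows, percentages in brackets are the share of all genes called in the same fit. At 30 weeks the main count was 26 (23.7%). It became 56 with surrogate variables (30.5%), 6 with the time point alone (15.3%) and 6 at an adjusted p under 0.01 (12.9%). With length-dependent scaling it was 15 (22.5%), and 46 with that scaling and exposed library 2 left out (32.6%). With single libraries left out the 30-week count ranged from 5 without control 1 (14.9%) to 62 without exposed 2 (34.2%). It was 44 without control 3 (22.6%), 11 without exposed 1 (18.2%) and 11 without exposed 4 (19.6%). For the difference of the exposure changes the count of 0 (4.74%) became 31 with surrogate variables (13.4%). With length-dependent scaling without exposed library 2 it was 13 (10.3%). With single 30-week libraries left out it ranged from 0 to 11, with 11 without exposed library 2 (9.1%) and 1 without control 3 (4.56%). From 24 h to 15 weeks the 3 calls in controls (24.9%) became 23 with surrogate variables (39.1%) and 34 with the groups alone (43.7%). They were 31 with batch 1 alone (42.6%), 5 without a filter (17.2%), 5 with upper-quartile scaling (25.3%) and 9 with length-dependent scaling (26.6%). Leaving out 1 library left 1 in its group, and the members' median log2 fold change then ranged from -0.05 to 0.13. The 7 calls in exposed cells (26%) became 23 with surrogate variables (39.2%) and 34 with the groups alone (44.9%). They were 32 with batch 1 alone (43.7%) and 0 at an adjusted p under 0.01 (15.2%). Without any of the 4 libraries the members' median ranged from -0.08 to -0.02. From 15 to 30 weeks the 61 calls in controls (50.3%) stayed between 54 and 65 where both 15-week libraries were kept. The share of all genes called then lay between 35.7% and 57.3%. The 54 in exposed cells (46%) were 35 at an adjusted p under 0.01 (31.9%). With single 30-week libraries left out they ranged from 50 without exposed 3 (40.7%) to 62 without exposed 2 (54.3%). With any 1 library left out, the members' median ranged from 0.52 to 0.73 in exposed cells and from 0.81 to 1.09 in controls. The stricter threshold makes fewer calls by construction, and otherwise the cause was not tested. A replicate block at 30 weeks gave 11 calls (19.1%), and the block moved no other count by over 1.5 times. Deviations of same-numbered libraries had correlations from -0.118 to 0.303 at 30 weeks. Control 2 and exposed 2 correlated best with each other, but not every library did so with its own number. With so few libraries, whether the numbers pair the samples cannot be decided. Of 813 values of named calls under alternatives, 723 kept the call, 90 lost it and 0 changed sign. Where over 20 members were called, only the 10 largest calls in each direction were followed, 11 of the 26 at 30 weeks. These values thus do not describe the smaller calls. At 30 weeks ATP5ME, NDUFS5 and UQCR10 kept the call in all 18 alternatives, with adjusted p up to 0.0136, 0.016 and 0.0408, and NDUFV3 in 8. The length classes by canonical transcript were added after seeing the data. By the longest transcript 14 of 26 members under 1000 bases were lower, 7 of 24 from 1000 up to 2000 bases and 4 of 34 longer ones. By the union of exons these were 6 of 11, 8 of 19 and 11 of 54. The medians by the union were -0.56, -0.55 and -0.39, so the classes differed less than by canonical transcript.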
